A study of Mus musculus with 12 samples.

Results

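The comparison set out here is the effect of a Huntington's disease (HD) transgene on the mouse striatum when p62 is missing. It took in 6 of the 12 mice of the study, 3 transgenic p62 knockouts (HD_p62KO) and 3 p62 knockouts without the transgene (NT_p62KO), and every gene with a usable probe set, 19248 in all. No gene was kept in or left out of the comparison for how it changed, though many genes named below were picked by the size or p-value of their change. Each mouse gave 1 Affymetrix whole-transcript array of striatal RNA at 8 weeks. The other 6 mice carry normal p62, 3 with the transgene (HD_p62WT) and 3 without (NT_p62WT). They entered the estimate of the spread, and their HD effect is set beside this one at the end. The labels name neither the HD line nor the promoter of its transgene, and neither sex nor litter, so what limits the line as a model is not given in the sources used here. All 6 mice of the comparison lack p62, so it shows what HD adds to that state and not what the loss of p62 does. The labels call the mice biological replicates, and the p-values measure the spread between these mice only.

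HD is caused by an expanded glutamine repeat in huntingtin, and the striatum is the region hit hardest. Most striatal neurons are GABAergic projection neurons with D1 or D2 dopamine receptors, which turn dopamine and glutamate input into cyclic AMP and calcium signals, and mouse models lose the transcripts of this machinery. The protein p62, encoded by Sqstm1, binds ubiquitin-tagged cargo and hands it to autophagosomes. It also frees the antioxidant factor NRF2 from KEAP1 and takes part in NF-κB signalling, so genes of protein disposal, NRF2 and NF-κB are described here beside the neuronal genes.

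Values are log2 signals of a gene's probe set, and differences are HD_p62KO minus NT_p62KO on the log2 scale, with standard errors (SE) from the fit. A gene is said to have risen or fallen only where its adjusted p in limma, by Benjamini-Hochberg over all genes, was below 0.05. Sqstm1 read 8.44, 8.52 and 8.49 in the NT_p62KO mice and 8.92, 9.13 and 9.02 in the HD_p62KO mice, against 11.19 to 11.75 in the 6 mice with p62. All 6 knockouts thus lay below every mouse with p62, as their labels say, and within the knockouts the remaining Sqstm1 signal rose with HD by 0.54 (SE 0.11, adjusted p = 0.0076), a rise that did not pass once the spread of the arrays described below was a covariate. Where the probes lie relative to the deleted part was not analysed here. Htt, the mouse huntingtin gene, read 9.31, 9.31 and 9.11 without and 9.24, 9.28 and 9.30 with the transgene, a difference of 0.03 (adjusted p = 0.777), and the human transgene itself has no probe set named here.

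Projection-neuron transcripts were present in all mice: Ppp1r1b, which encodes DARPP-32, read 11.33, 11.48 and 11.19 in the NT_p62KO mice and 10.70, 10.69 and 10.44 in the HD_p62KO mice. The dissections differed in choroid plexus. Ttr, the transthyretin gene that marks it, read 11.58, 11.58 and 11.70 in the NT_p62KO mice and 8.36, 12.21 and 11.32 in the HD_p62KO mice, so HD_p62KO mouse 1 stood well below the others. The mean of the 14 choroid and ependymal markers, relative to the mean of the 12 mice, was 0.34, 0.26 and 0.49 in the NT_p62KO mice and -0.63, 0.87 and 0.20 in the HD_p62KO mice, with overlapping groups and no marker that passed. The arrays also differed in spread. The SD of all log2 values on an array was 1.80, 1.82 and 1.73 in the NT_p62KO mice and 1.81, 1.87 and 1.86 in the HD_p62KO mice, so 2 HD_p62KO arrays lay above all NT_p62KO arrays while HD_p62KO mouse 1 lay within their range. Counts with this SD as a covariate are given below.

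Across all genes, 4172 of 19248 (21.7%) passed for the HD effect without p62. Of these 2566 (13.3% of all genes) rose and 1606 (8.34%) fell, and 4049 of the 4172 did not overlap between groups, against 39.4% of all genes. Most changes were small: the median was 0.38 among genes that rose and -0.36 among those that fell, and 19 genes rose and 27 fell by 2-fold or more. The median difference of all genes was -0.02. Rises sat among bright genes. Of the 4812 dimmest genes 3.01% rose and 9.27% fell, while of the 4812 brightest 21.2% rose and 9.0% fell. The shares of 13.3% and 8.34% are the background over all genes for the groups below, but the groups differ in brightness: 93.5% of the ribosome genes, 81.8% of the respiratory chain genes and 73.3% of the proteasome genes were among the 4812 brightest, against 4.41% of the interferon genes.

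**Figure D1:**
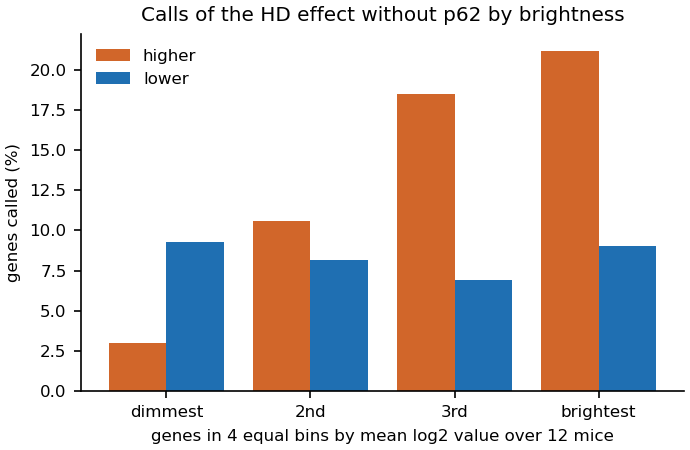
Share of genes (%) called higher (orange) or lower (blue) in HD_p62KO than in NT_p62KO mice, in 4 equal bins of the mean log2 value over 12 mice (4812 genes each). The share called higher goes from 3.01% in the dimmest to 21.2% in the brightest bin, while the share called lower stays between 6.94% and 9.27%.

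The count depended on 3 mice and on the spread of the arrays. Without HD_p62KO mouse 2, 734 genes rose and 539 fell, without HD_p62KO mouse 3 these were 1094 and 701, and without NT_p62KO mouse 3 they were 1076 and 800. With each array's SD as a covariate 267 rose and 511 fell, so 34.3% of the calls were rises where the main fit had 61.5%, and no gene called in both changed direction. These 4 fits are called the 4 checks from here on, and counts under them are given in that order. Leaving out together the 3 arrays of smallest spread in their groups (HD_p62KO mouse 1, NT_p62KO mouse 3 and HD_p62WT mouse 2) gave 2129 rises and 1554 falls.

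**Figure D2:**
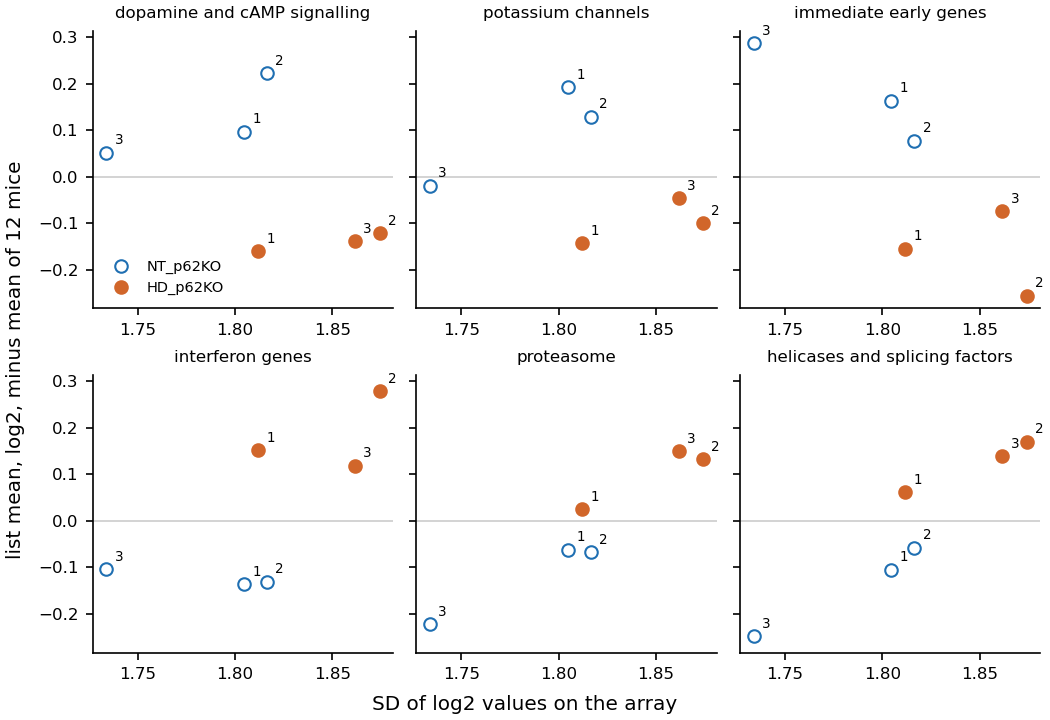
Mean of 6 gene lists per mouse (log2, minus the mean of 12 mice) against the SD of all log2 values on that mouse's array, for 3 NT_p62KO (open) and 3 HD_p62KO mice (filled), numbered by replicate. In these 6 lists, picked from 46, the groups do not overlap. In some lists not shown they do, such as the endoplasmic reticulum list, with HD_p62KO mouse 1 at 0.011 and NT_p62KO mouse 2 at 0.013. The array SD was 1.82 for NT_p62KO mouse 2 and 1.81 for HD_p62KO mouse 1. What array spread adds to the list means was not tested. NT_p62KO mouse 3, on the array of smallest SD, has the lowest mean of its group in the dopamine, potassium channel, proteasome and splicing lists.

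The largest fall with a named gene was that of Gpx6, a glutathione peroxidase, which read 8.37, 8.59 and 8.32 in the NT_p62KO mice and 6.55, 6.05 and 6.49 in the HD_p62KO mice. This is 4.19-fold lower (log2 difference -2.07, SE 0.16, adjusted p = 3.23e-05). Scn4b, the β4 subunit of voltage-gated sodium channels, read 10.71, 10.89 and 10.68 and 8.82, 8.99 and 8.82, 3.69-fold lower (SE 0.08 on the log2 scale, adjusted p = 6.5e-07). In both genes all HD_p62KO mice lay far below all NT_p62KO mice. The orphan receptor gene Gpr139 fell by 1.52, the copine gene Cpne9 by 1.51, the peptidase gene Phex by 1.46 and the checkpoint gene Clspn by 1.38. The extracellular matrix genes Abi3bp and Coch fell by 1.37 and 1.29. Next in size were Cnr1, the lectin gene Clec10a, the carbonic anhydrase gene Car12, Zswim2, the peptidase gene Dpp4, Ryr1 and Rgs4, which fell by 1.28 to 1.09.

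Among genes that rose without overlap of the groups, the largest difference was that of Nexmif, a gene of neurite extension. It read 5.96, 5.57 and 4.66 in the NT_p62KO mice and 6.69, 7.36 and 7.31 in the HD_p62KO mice, a rise of 1.72 (SE 0.30, adjusted p = 0.00407). The groups did not overlap, though NT_p62KO mouse 3 lay well below the other 2 of its group. Cntn6, a contactin of neuronal adhesion, rose by 1.60 (SE 0.41) and Rab9, a GTPase of transport from endosomes to the Golgi, by 1.51 (SE 0.45). The MHC class I gene H2-Q2 rose by 1.41, though its near-identical neighbours may share its probes. Nfu1 of iron-sulfur cluster assembly, Ss18 of the BAF chromatin complex and Alg13 of N-glycosylation rose by 1.35, 1.32 and 1.23. The splicing genes Wbp11 and Srsf3 rose by 1.21 and 1.14 and the interferon genes Ifit3 and Irf9 by 1.24 and 1.10. Nipal2, Lnpk of endoplasmic reticulum junctions, Guf1 of mitochondrial translation and the zinc finger gene Zfp160 completed the 15 largest rises, at 1.04 to 1.11. The SD between NT_p62KO mice reached 0.975 among these rises, in Cntn6, and 0.726 among the 15 largest falls, in Zswim2.

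**Figure D3:**
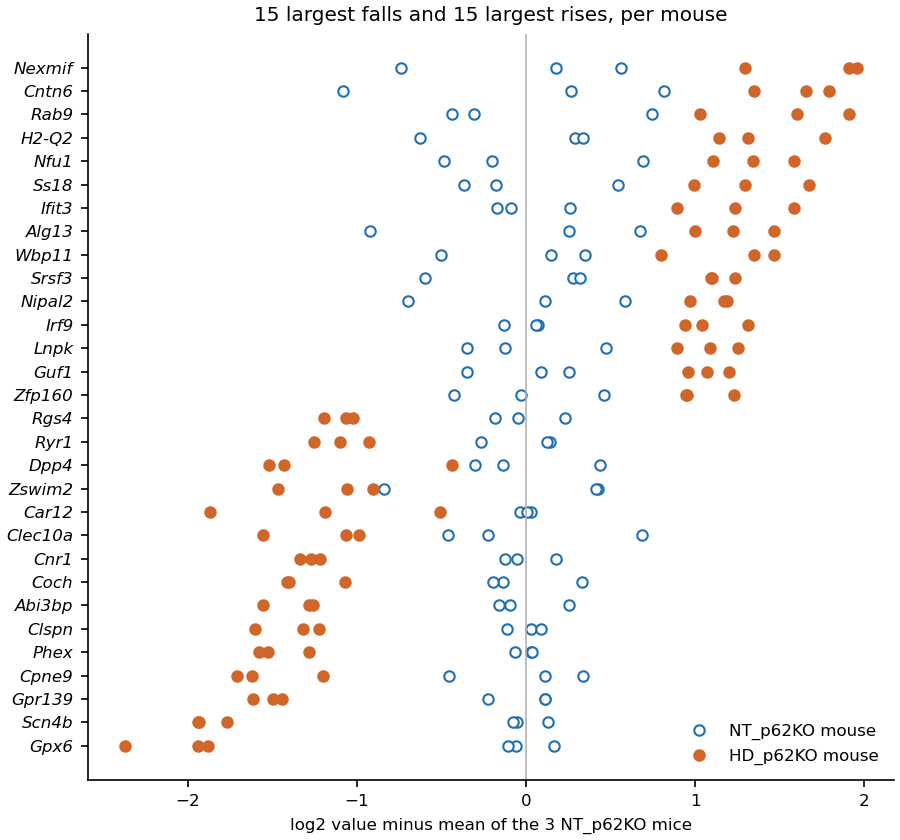
Log2 value of each mouse minus the mean of the 3 NT_p62KO mice, for the 15 largest rises (top) and 15 largest falls (bottom) among genes that passed and whose groups did not overlap. The falls of Gpx6 and Scn4b are tight in both groups, while for Nexmif, Cntn6 and Rab9 the open points of the NT_p62KO mice are spread over more than 1 log2 unit.

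The machinery that turns dopamine into cyclic AMP signals fell. Of 35 genes of dopamine and cyclic AMP signalling, 19 fell and 5 rose, with a median difference of -0.30 against -0.02 over all genes. Whole striatum mixes neurons, glia and vessels, so fewer cells of a type and less RNA per cell cannot be told apart. Of 11 receptor genes 8 fell. Drd2, the D2 dopamine receptor, read 11.27, 11.50 and 11.32 in the NT_p62KO mice and 10.71, 10.67 and 10.59 in the HD_p62KO mice (difference -0.71, SE 0.08, adjusted p = 0.000452). Drd1, the D1 receptor, read 10.52, 10.59 and 10.63 and 10.05, 9.95 and 9.99 (difference -0.58, SE 0.07, adjusted p = 0.000686). Neither receptor's groups overlapped. The muscarinic receptor genes Chrm4 and Chrm1 fell by 0.87 and 0.34 and the serotonin receptor genes Htr1b and Htr6 by 0.52 and 0.39. Gpr149, an orphan receptor, rose by 0.59, and the serotonin receptor gene Htr2c, named here after its value was seen, by 0.83, while Drd3 at 0.28 did not pass. Adora2a, the adenosine receptor of D2 neurons, was not analysed here.

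Downstream of the receptors, Adcy5, the main striatal adenylyl cyclase, fell by 0.84 (SE 0.08) and Ppp1r1b by 0.72 (SE 0.10). The phosphoprotein genes Ppp1r1a, Arpp19 and Arpp21, whose products like DARPP-32 are substrates of protein kinase A, fell by 0.70, 0.66 and 0.43. The tyrosine phosphatase genes Ptpn7 and Ptpn5, the latter encoding STEP, fell by 0.92 and 0.50. Of protein kinase A, the catalytic subunit gene Prkacb rose by 0.38, and its regulatory subunit genes Prkar1a and Prkar1b, named after their values were seen, by 0.42 and 0.29. Gnal, the olfactory-type G protein that couples D1 receptors to Adcy5, differed by 0.12 and did not pass. Falls among the 35 genes numbered 14, 15, 17 and 14 in the 4 checks, and rises 4, 3, 3 and 1.

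Cyclic nucleotide phosphodiesterases split. Pde10a, the enzyme enriched in projection neurons, read 11.88, 12.02 and 11.87 in the NT_p62KO mice and 10.95, 11.04 and 10.96 in the HD_p62KO mice (difference -0.94, SE 0.08, adjusted p = 4.28e-05). Pde1b, Pde7b, Pde2a and Pde1c also fell, by 0.64, 0.39, 0.30 and 0.27, whereas Pde7a, Pde3b and Pde4d rose by 0.64, 0.53 and 0.41. The median of the 17 enzymes was 0.10 and turned to -0.16 with the array SD as a covariate, where 5 enzymes were lower and none higher in limma (2 at an unadjusted p below 0.05), and to -0.03 without NT_p62KO mouse 3. RGS proteins, which end G protein signals, moved 1 way: 6 of 14 fell and the median was -0.30. Rgs4 read 10.87, 11.15 and 10.74 and 9.86, 9.90 and 9.73 (adjusted p = 0.000443), without overlap. The striatal Rgs9 fell by 0.87, Rgs11 by 0.63 and Rgs14 by 0.59, while Rgs2 at -0.08 and Rgs7 at 0.16 did not pass.

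Regulators of the small GTPases Ras and Rap, which carry dopamine and calcium signals to kinases, had 11 falls and 2 rises among 26 genes. Rasd2, which encodes the striatal GTPase Rhes that binds mutant huntingtin, read 11.45, 11.62 and 11.37 and 10.72, 10.72 and 10.56 (difference -0.81, SE 0.09, adjusted p = 0.000266). Its groups did not overlap. Rasgrp2, the exchange factor CalDAG-GEFI, fell by 0.80, Rin1 by 0.68, Rasgef1c by 0.61 and Rem2 by 0.55, while Rapgef2 and Rit2 at -0.10 and 0.07 did not pass. The list median was -0.09, and 7, 8, 11 and 9 genes fell in the 4 checks.

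Neuropeptide genes of both projection pathways fell, with exceptions. Penk, the enkephalin precursor of D2 neurons, read 13.11, 13.27 and 13.09 in the NT_p62KO mice and 12.51, 12.51 and 12.52 in the HD_p62KO mice (difference -0.64, SE 0.07, adjusted p = 0.00025). Pdyn, the dynorphin precursor of D1 neurons, read 8.48, 8.76 and 8.60 and 8.00, 8.12 and 8.19 (difference -0.51, SE 0.10, adjusted p = 0.00693). Tac1, the substance P precursor that D1 neurons also make, read 10.97, 11.25 and 10.87 and 11.24, 11.28 and 11.27, a difference of 0.23 that did not pass (adjusted p = 0.0853). Among the receptors, Oprk1 and Oprd1, for dynorphin and enkephalin, fell by 0.73 and 0.71, Sstr2 by 0.58 and Tacr1 by 0.38, while Oprl1, the nociceptin receptor, rose by 0.39. Oprm1 at -0.18 did not pass. In all 7 of 26 genes fell and 1 rose, and in the 4 checks 4, 5, 7 and 5 fell.

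Cnr1, the CB1 cannabinoid receptor of projection neuron terminals, was among the 15 largest falls. It read 10.63, 10.93 and 10.70 in the NT_p62KO mice and 9.41, 9.48 and 9.54 in the HD_p62KO mice, 2.42-fold lower (SE 0.09 on the log2 scale, adjusted p = 2.8e-05) and without overlap. Of the other endocannabinoid genes, Dagla, which makes the ligand 2-arachidonoylglycerol, fell by 0.38 and Trpv1 by 0.41, while Cnrip1, whose product binds CB1, rose by 0.39. The hydrolase genes Abhd6 and Abhd12, at 0.02 and 0.17, did not pass, and 4 of the 12 genes passed in all.

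Potassium channel genes fell. None of 46 genes rose (the 33 that did not fall did not pass in limma, and 0 was higher at an unadjusted p below 0.05), 13 fell, and the median was -0.18. The falls included the Ether-à-go-go family genes Kcnh4 (-0.91) and Kcnh3 (-0.72), the auxiliary subunit genes Kcnip2 (-0.67) and Kcnab1 (-0.52), the leak channel gene Kcnk2 (-0.58) and Kcna4 (-0.36). Kcnh4 read 8.63, 8.67 and 8.61 in the NT_p62KO mice and 7.80, 7.67 and 7.72 in the HD_p62KO mice (adjusted p = 2.2e-05). Kcnd2, the A-type channel that Kcnip2 assists, at -0.19, and the glial channel gene Kcnj10 at -0.32 did not pass. In the 4 checks 8, 5, 14 and 12 of the 46 fell.

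Sodium channel subunits other than Scn4b did not follow it. Scn9a rose by 0.89 (SE 0.14), Scn3b, a β subunit like Scn4b, by 0.31, and the leak channel gene Nalcn and the channel partner gene Fgf12 by 0.30 and 0.30. Scn2a, the main α subunit of these neurons, was at 0.14 and did not pass. Of the 12 genes 1, 1, 2 and 1 rose in the 4 checks, and 1 fell in each.

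Calcium handling genes fell in the 3 classes looked at, channels, stores and pumps, and sensors. Of 57 genes 25 fell and 3 rose, with a median of -0.15. Among 17 channel genes 9 fell, with Cacng4 (-0.63), Cacna2d3 (-0.50), Cacnb1 (-0.49) and the L-type pore gene Cacna1c (-0.28), while Cacna2d1 rose by 0.48. Of 14 genes of stores and pumps 7 fell. Ryr1, a ryanodine receptor that releases stored calcium, read 8.39, 8.80 and 8.78 in the NT_p62KO mice and 7.56, 7.40 and 7.73 in the HD_p62KO mice (difference -1.10, SE 0.13, adjusted p = 0.000469). The exchanger gene Slc8a2 and the plasma membrane pump genes Atp2b2 and Atp2b1 fell by 0.69, 0.64 and 0.52, and the endoplasmic reticulum pump gene Atp2a2 by 0.37. Stim1, the store sensor, rose by 0.25. Ryr2 at -0.12 did not pass.

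Calcium sensors and kinases had 9 falls among 26 genes. Itpka, an inositol trisphosphate kinase of dendritic spines, read 9.60, 9.44 and 9.37 and 8.55, 8.55 and 8.56 (difference -0.92, adjusted p = 0.000244). The CaMKII inhibitor gene Camk2n1 fell by 0.82, the calmodulin-binding Nrgn by 0.61, Camkk2 by 0.53 and Camk4 by 0.51. The kinase subunit Camk2a and the calmodulin gene Calm2, at -0.08 and -0.02, did not pass. Over all 57 calcium genes 17, 19, 21 and 18 fell in the 4 checks.

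At the postsynaptic density 14 of 32 scaffold genes fell and 1 rose, with a median of -0.24. Lrrc10b read 10.10, 10.33 and 9.82 in the NT_p62KO mice and 8.94, 9.08 and 8.96 in the HD_p62KO mice (difference -1.09, adjusted p = 0.00104), and the synapse differentiation gene Syndig1l fell by 0.88. Homer1, which links metabotropic glutamate receptors to calcium stores, fell by 0.77, the scaffold genes Shank3 and Dlgap3 by 0.69 and 0.60, the actinin genes Actn2 and Actn1 by 0.63 and 0.46, and Dlg2 by 0.38. Nlgn3 and Lrrc7, at 0.18 and -0.16, did not pass. Falls among the 32 numbered 12, 13, 15 and 11 in the 4 checks.

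Transmitter receptors split by transmitter. Of 21 glutamate receptor genes 5 fell: Grm4 by 0.72, the kainate receptor gene Grik2 by 0.51, the NMDA receptor gene Grin2c by 0.41, Grm3 by 0.39 and Grm5 by 0.28. The AMPA receptor genes Gria1 and Gria2, at 0.16 and 0.21, did not pass. Of 14 GABA and glycine receptor genes 5 rose, Glra3 by 0.88, Glra2 by 0.66, Glrb by 0.41, Gabra5 by 0.35 and Gabrb1 by 0.30. Gabrd, the extrasynaptic δ subunit, fell by 0.70 (SE 0.07). Of these 35 genes 1, 1, 2 and 0 rose in the 4 checks (2 at an unadjusted p below 0.05 in limma in the last), and 5, 6, 7 and 5 fell. Of 39 presynaptic release genes 5 fell (3, 4, 7 and 4 in the 4 checks), among them Syt2 (-0.61), Unc13a (-0.39), Rph3a (-0.36) and Bsn (-0.34). Syp, the vesicle protein synaptophysin, rose by 0.42, and Syt1 at 0.11 did not pass.

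**Figure D4:**
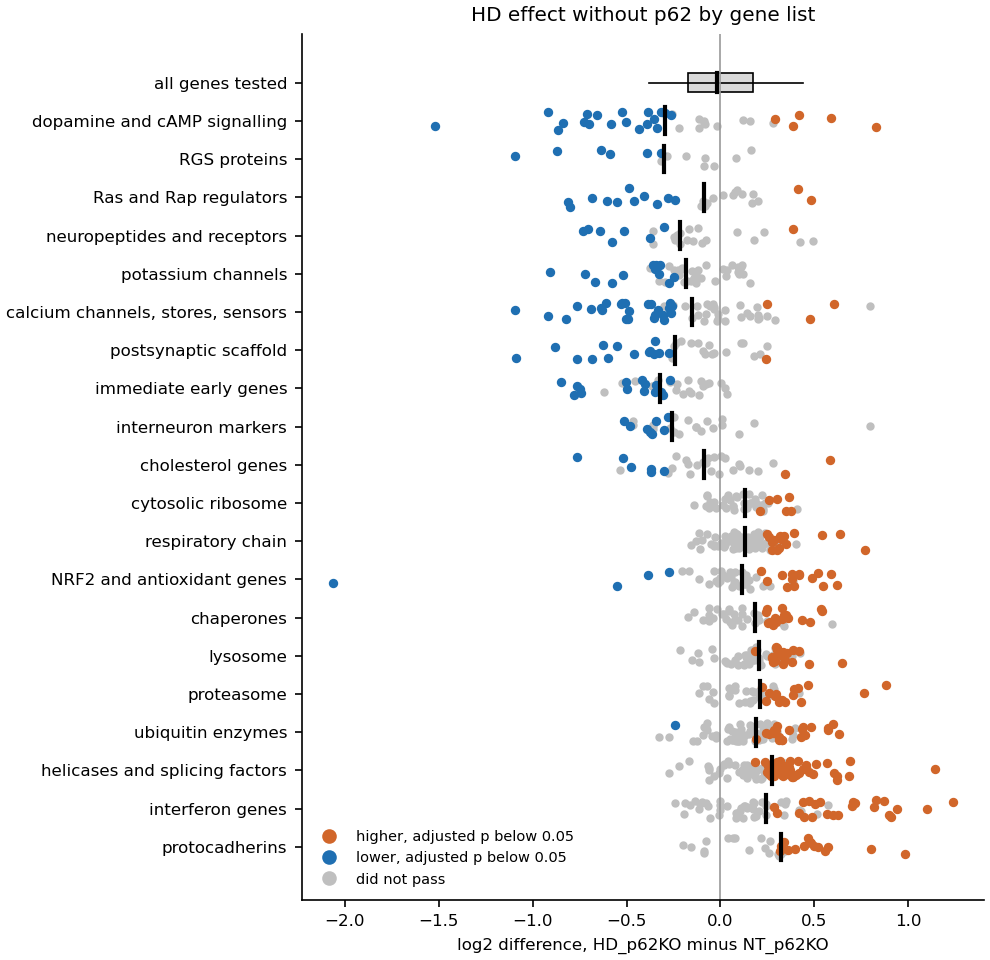
Log2 difference (HD_p62KO minus NT_p62KO) of every measured member of 20 gene lists, with members that rose in orange, that fell in blue and that did not pass in grey. Black bars are list medians, and the top box shows the quartiles of all 19248 genes with lines to the 5th and 95th percentiles. The lists were picked from 46. The neuronal lists shown at the top have medians of -0.15 to -0.32 apart from Ras and Rap regulators and cholesterol genes, which lie at -0.09. The protocadherin list at the bottom has the highest median, 0.32. Neuronal lists not shown include sodium channels (median 0.11), phosphodiesterases (0.10), projection neuron factors (0.02) and transmitter receptors (-0.002). Endocannabinoid, presynaptic release and neurotrophin genes, also not shown, have medians of -0.04, -0.11 and -0.19.

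Among 36 transcription factors that specify or mark striatal projection neurons, 7 fell and 5 rose. Rxrg and Rarb, the retinoid receptors of the striatum, fell by 0.70 and 0.45, Foxo1 by 0.51, and Bcl11b, also called Ctip2, by 0.41. Ikzf2, Meis1 and Isl1, the last a factor of D1 neuron development, rose by 0.53, 0.47 and 0.42. Bcl11b read 10.25, 10.45 and 10.25 in the NT_p62KO mice and 9.96, 9.85 and 9.89 in the HD_p62KO mice, without overlap. Meis2 at -0.16 and Mef2c at 0.15 did not pass. The list median of 0.02 lay near 0 and its sign was not stable: it was -0.02 on quantile normalization, -0.02 without HD_p62KO mouse 2, -0.01 without NT_p62KO mouse 3 and -0.05 with the array SD as a covariate, and just below 0 with equal array medians. In the 4 checks 5, 5, 6 and 2 fell and 2, 4, 4 and 1 rose.

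Genes switched on by neuronal activity fell. Of 36 immediate early genes 15 fell and the other 21 did not pass, and 33 of the 36 had a negative difference, with a median of -0.32. Egr3 read 9.58, 9.48 and 9.46 in the NT_p62KO mice and 8.79, 8.78 and 8.74 in the HD_p62KO mice (difference -0.74, SE 0.07, adjusted p = 0.000149). Egr1 and Ier5 fell by 0.50 and 0.50, and Klf10 by 0.41. Of the effectors, the phosphatase gene Dusp14 fell by 0.85, the activin gene Inhba by 0.78, Nptx2, which clusters AMPA receptors, by 0.75, and the neurotrophin gene Bdnf by 0.42. The best known members did not pass: Fos read 7.31, 7.28 and 8.00 and 7.34, 7.02 and 7.63 (difference -0.20, adjusted p = 0.439) and Arc 9.13, 8.86 and 9.75 and 8.98, 8.65 and 9.02 (-0.37, adjusted p = 0.169). Of the 36 genes 9, 12, 12 and 7 fell in the 4 checks. Of 12 neurotrophin genes Bdnf, Vgf (-0.40), Nrtn (-0.34) and the receptor gene Ntrk3 (-0.30) fell, while Ntrk2, the BDNF receptor, at 0.03 and Sort1 at -0.19 did not pass, and 2, 4, 4 and 2 fell in the 4 checks.

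Interneuron markers also went down: 8 of 28 fell, the rest did not pass, and the median was -0.26. Slc5a7, the choline transporter of cholinergic interneurons, fell by 0.48, while Chat, which makes acetylcholine, read 7.15, 7.87 and 7.29 in the NT_p62KO mice and 6.97, 7.12 and 6.83 in the HD_p62KO mice and did not pass (difference -0.47, adjusted p = 0.116). Of GABAergic interneuron genes, Kit fell by 0.51, Nos1 by 0.39, Chodl by 0.37, Kcnc1 by 0.34 and Sst by 0.30. The pan-GABAergic genes Gad1 and Gad2, at -0.11 and 0.10, did not pass. In the 4 checks 5, 3, 4 and 3 of the 28 fell.

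Few sterol genes passed. Of 16 genes of cholesterol synthesis 3 fell, 13 did not pass and 15 had a negative difference, with a median of -0.18. Msmo1 read 9.87, 9.98 and 9.72 in the NT_p62KO mice and 8.91, 9.13 and 9.24 in the HD_p62KO mice (difference -0.76, SE 0.14, adjusted p = 0.00513), and Cyp51 and Fdps fell by 0.48 and 0.30. Srebf2, the factor that drives the pathway, fell by 0.37, its brake Insig1 by 0.52 and the neuronal cholesterol hydroxylase gene Cyp46a1 by 0.37. The efflux pump gene Abca1 and Srebf1, both targets of liver X receptors, rose by 0.58 and 0.34. Apoe at -0.05 did not pass. Over the 30 sterol genes 4, 6, 6 and 9 fell in the 4 checks, so more fell with the array SD as a covariate than without.

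Interferon genes rose. Of 68 genes induced by interferon or acting in its pathway 23 rose (33.8%, against 13.3% of all genes) and the other 45 did not pass, and the median was 0.24. Their promoters are printed here because these genes moved together and share a known control element. Interferon-induced genes commonly carry an interferon-stimulated response element (ISRE), bound by a complex that includes IRF9, whose core was searched as GAAA, any 2 bases and GAAA on both strands. In RefSeq promoters (GRCm38.p6, 250 bases before to 50 after the start), 583 of 15157 genes (3.85%) held it. Of the 53 interferon genes with a promoter 23 (43.4%) did, 12 of the 19 that rose and 11 of the 34 that did not pass. In the 250 bases before the start alone these were 8 of the 19 and 10 of the 34, so the shares lay closer there. The genes printed were chosen and not drawn at random from those that rose. Gbp3 and Irf9 have 2 windows each, and the printed window was picked by its number of matches. The 250 bases before the start of 5 genes that rose follow, 5′ to 3′ on the gene's strand, with matches in capitals, which read as TTTC, 2 bases and TTTC where the element is on the other strand. They lie at chr19:34583279-34583528 (+) for Ifit3, chr19:34640639-34640888 (+) for Ifit1, chr11:48871421-48871670 (-) for Irgm1, chr3:142559794-142560043 (+) for Gbp3 and chr14:55603735-55603984 (+) for Irf9.
Ifit3: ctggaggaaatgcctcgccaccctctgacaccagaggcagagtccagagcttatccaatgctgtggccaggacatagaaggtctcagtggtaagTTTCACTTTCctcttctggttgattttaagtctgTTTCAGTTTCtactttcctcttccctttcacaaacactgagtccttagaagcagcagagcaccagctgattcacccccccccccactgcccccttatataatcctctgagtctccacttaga
Ifit1: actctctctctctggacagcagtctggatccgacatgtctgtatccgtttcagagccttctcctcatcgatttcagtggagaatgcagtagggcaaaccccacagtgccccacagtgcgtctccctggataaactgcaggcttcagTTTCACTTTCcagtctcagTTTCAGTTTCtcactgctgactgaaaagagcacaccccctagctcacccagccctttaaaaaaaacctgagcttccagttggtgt
Irgm1: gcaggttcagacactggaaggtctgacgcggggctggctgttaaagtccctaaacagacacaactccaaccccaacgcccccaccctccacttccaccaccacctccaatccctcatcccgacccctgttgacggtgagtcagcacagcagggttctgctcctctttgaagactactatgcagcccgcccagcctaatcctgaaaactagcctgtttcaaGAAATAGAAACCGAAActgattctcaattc
Gbp3: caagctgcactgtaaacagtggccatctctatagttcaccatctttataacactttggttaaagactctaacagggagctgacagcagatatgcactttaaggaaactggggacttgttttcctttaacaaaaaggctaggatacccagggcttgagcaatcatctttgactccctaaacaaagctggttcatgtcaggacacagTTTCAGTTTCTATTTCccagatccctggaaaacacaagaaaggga
Irf9: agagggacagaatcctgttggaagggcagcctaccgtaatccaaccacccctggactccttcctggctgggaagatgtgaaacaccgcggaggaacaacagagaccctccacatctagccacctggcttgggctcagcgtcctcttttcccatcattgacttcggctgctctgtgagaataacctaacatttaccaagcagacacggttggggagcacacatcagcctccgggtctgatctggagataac

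Ifit3 and Ifit1, neighbours on chromosome 19 whose products bind viral RNA, each had 2 matches, 113 and 147 bases before the start in Ifit3 and 76 and 95 in Ifit1. Irgm1 and Gbp3, GTPases that act on intracellular pathogens and on membranes, each had 2 overlapping matches, which form 1 run of 16 bases. Irf9 had none in the window shown. The same search was run for 3 other elements, on both strands. The cyclic AMP element TGACGTCA stood in 3 of 26 immediate early promoters against 2.72% of all genes, none of the 8 genes with a promoter that fell among them. The ATF4 element TGATG, any base and AA stood in 7 of 28 promoters of integrated stress genes (against 3.64% of all genes), and the sterol element TCAC, any base and CCAC in 0 of 24 promoters of sterol genes, against 1.40%. Ifit3 read 7.74, 7.31 and 7.39 in the NT_p62KO mice and 8.37, 9.06 and 8.72 in the HD_p62KO mice (difference 1.24, SE 0.17, adjusted p = 0.00122). Irf9 read 7.25, 7.45 and 7.44 and 8.32, 8.69 and 8.42 (difference 1.10, SE 0.10, adjusted p = 0.000184), with all HD_p62KO mice above all NT_p62KO mice. Ifit1 rose by 0.91, Irgm1 by 0.87 and Gbp3 by 0.82.

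The other interferon genes covered sensing and response. The RNA sensor genes Ddx58 (RIG-I) and Ifih1 (MDA5) rose by 0.72 and 0.28, and Eif2ak2, the RNA-activated kinase PKR, by 0.49. The receptor subunit gene Ifnar2 rose by 0.63, Irf2 by 0.53, Irf7 by 0.30, and the feedback inhibitor gene Usp18 by 0.60. Rtp4 and Lgals3bp rose by 0.94 and 0.90. Ifnar1, the other receptor subunit gene, and the kinase gene Jak1 were at 0.24 and 0.18 and did not pass. Rises among the 68 numbered 13, 20, 19 and 11 in the 4 checks. Markers of microglia, which express many such genes, had 3 rises among 21 (14.3%, near the 13.3% of all genes), Cd53 (0.40), Ctss (0.35) and Selplg (0.22). In the 4 checks 1, 2, 1 and 0 of them rose, the last with 3 higher at an unadjusted p below 0.05 in limma. The part of microglia in the interferon result was not tested. Aif1, the microglial IBA1 gene, read 5.93, 6.34 and 6.42 and 6.27, 6.39 and 6.11 (adjusted p = 0.879).

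MHC class I presentation, which interferon also induces, rose in 6 of 18 genes: the light chain gene B2m by 0.77 (SE 0.11), the loading genes Pdia3, Erap1 and Tapbp by 0.56, 0.48 and 0.47, and the proteasome activator genes Psme1 and Psme2 by 0.35 and 0.35. Nlrc5, a transactivator of these genes, fell by 0.25. In the 4 checks 2, 5, 4 and 1 of the 18 rose, and none fell in limma (1 lower at an unadjusted p below 0.05 in the first 3 checks and 0 in the last). NF-κB and inflammation genes did not rise together: of 28, 3 rose and 5 fell. Nfkbia, the inhibitor that NF-κB itself induces, rose by 0.43 and Traf6, a binding partner of p62, by 0.27, while the cytokine genes Tnf and Il6 fell by 0.45 and 0.46. Rela at 0.20 did not pass. In the 4 checks 0, 2, 1 and 0 rose (3 and 3 higher at an unadjusted p below 0.05 in limma where none passed), and the falls numbered 0, 0, 2 and 1 (none passing in limma without HD_p62KO mouse 2 or 3, where 5 and 7 were lower at an unadjusted p below 0.05).

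Protein disposal genes rose by small amounts. The proteasome degrades ubiquitin-tagged proteins, and of its 45 genes 16 rose (35.6%, against 13.3% of all and 21.2% of the brightest genes), the other 29 did not pass, and the median was 0.21. The rises were spread over the core particle (5 of 14), the regulatory particle (6 of 18) and activators and assembly factors (5 of 13). Psmd1, the scaffold of the regulatory particle base, read 6.56, 6.63 and 6.59 in the NT_p62KO mice and 7.13, 7.44 and 7.85 in the HD_p62KO mice (difference 0.88, SE 0.19, adjusted p = 0.00969). The activator gene Psme3 rose by 0.77, Psmc6 by 0.43 and Psma3 by 0.35, while Nfe2l1, which induces proteasome genes, was at -0.10 and did not pass. Of 82 ubiquitin enzyme genes 24 rose and 1 fell, with a median of 0.19. Among them were Uba3 (0.57), of the activating enzyme for a ubiquitin-like protein, and the ubiquitin-activating enzyme gene Uba6 (0.45). The deubiquitinase genes Usp37 (0.63), Usp11 (0.60) and Usp14 (0.30) rose too. Uchl1 at 0.23 did not pass.

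Chaperones rose in 16 of 46 genes with a median of 0.18. The chaperonin TRiC, which folds actin and tubulin and binds huntingtin, had 6 rises with prefoldin among 13 genes, with Cct8 (0.54), Cct2 (0.34) and Pfdn4 (0.33). Of the HSP70 and HSP40 systems, Hspa8 rose by 0.24, Dnajb1 by 0.43, and the HSP90 partner gene Chordc1 and the factor gene Hsf2 by 0.48 and 0.53. Hspa1a, the stress-inducible HSP70, read 7.51, 7.49 and 7.77 and 7.59, 7.53 and 7.71 (difference 0.02, adjusted p = 0.876). In the endoplasmic reticulum 9 of 33 genes rose and 2 fell. Derl2 of the export channel rose by 0.68, the lectin gene Edem3 by 0.42, the segregase gene Vcp by 0.34 and the chaperone gene Hspa5 by 0.32, while the stress sensor gene Atf6 fell by 0.49 and Derl3 by 0.48. Calr and Canx at 0.06 and 0.14 did not pass.

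Autophagy receptors, the family of p62, rose in 5 of 12 genes (41.7%, against 13.3% of all and 21.2% of the brightest genes), with the knocked-out Sqstm1 counted among them. Of this list 91.7% were among the 4812 brightest genes. Besides the residual Sqstm1 signal these were Tax1bp1, a ubiquitin-binding receptor like p62, at 0.40, the ferritin receptor gene Ncoa4 at 0.49, the endoplasmic reticulum receptor gene Retreg1 at 0.48 and the mitochondrial receptor gene Fundc1 at 0.31. Tax1bp1 read 8.65, 9.03 and 8.53 in the NT_p62KO mice and 8.99, 9.21 and 9.21 in the HD_p62KO mice, with overlapping groups. The mitophagy receptor gene Bnip3l at 0.12 did not pass. Of 40 core autophagy genes 5 rose (12.5%, close to the 13.3% of all genes): Tmem41b (0.46), Wdr45b (0.42), Atg3 (0.38), Atg7 (0.24) and the initiating kinase gene Ulk1 (0.19). Of 60 lysosome genes 20 rose and the others did not pass, with a median of 0.21. They took in hydrolases such as Scpep1 (0.65), Gla (0.47) and Ppt1 (0.39), the progranulin gene Grn (0.42) and 7 subunit genes of the acidifying proton pump, Atp6v1a (0.34) among them. Ctsd and Lamp1 at 0.14 and 0.18 did not pass.

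These rises of protein disposal genes were fewer in the 4 checks. Rises numbered 3, 5, 4 and 0 for the proteasome, 5, 9, 9 and 2 for ubiquitin enzymes, 3, 4, 3 and 0 for chaperones, 0, 3, 2 and 0 for the endoplasmic reticulum, 2, 3, 3 and 1 for autophagy receptors, 0, 1, 1 and 0 for core autophagy and 3, 6, 5 and 0 for the lysosome. With the array SD as a covariate, limma at an unadjusted p below 0.05 had 9, 11, 5, 3 and 9 higher in the proteasome, chaperone, endoplasmic reticulum, core autophagy and lysosome lists. Without HD_p62KO mouse 2 it had 9 higher in the endoplasmic reticulum list and 9 in core autophagy.

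Stress programmes beyond protein disposal rose in part. Of 35 genes of the integrated stress response, the block on translation that lets ATF4 through, 10 rose, with a median of 0.16. Shmt2 and Psat1, ATF4 targets of serine and folate metabolism, rose by 0.61 and 0.50, Asns by 0.31, the amino acid sensing kinase gene Eif2ak4 by 0.30 and Atf4 itself by 0.28 (SE 0.09, adjusted p = 0.0393). NRF2 and antioxidant genes moved both ways: 14 of 54 rose and 4 fell. Nfe2l2, which encodes NRF2, read 8.25, 8.02 and 8.12 in the NT_p62KO mice and 8.51, 8.79 and 8.74 in the HD_p62KO mice (difference 0.55, SE 0.10, adjusted p = 0.00613). Of its targets Mgst1 rose by 0.62, Aldh3a2 by 0.52, Prdx1 by 0.49 and Txnrd1 by 0.38, and Cbr3 and Blvrb fell by 0.55 and 0.39. Keap1 at 0.02 did not pass, and Gpx6, with the deepest fall of all named genes, stands in this list. Rises numbered 4, 4, 6 and 1 and 3, 4, 3 and 0 in the 4 checks, the last 0 with 8 higher at an unadjusted p below 0.05 in limma.

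Respiratory chain and ribosome genes moved by little. Of 77 respiratory chain genes 15 rose (19.5%, against 21.2% of the brightest genes), with a median of 0.13, led by the complex I genes Ndufc1 (0.77) and Ndufab1 (0.64) and the mitochondrial DNA factor gene Tfam (0.54). Atp5b at 0.20 and Cox6c at 0.07 did not pass. Of 46 genes of the cytosolic ribosome 6 rose, a share close to the 13.3% of all genes and below the 21.2% of the brightest, Rpl5 (0.37) and Rps9 (0.37) among them. Rises numbered 1, 4, 1 and 0 in the respiratory chain and 1, 2, 2 and 0 in the ribosome in the 4 checks, with 7 and 4 at an unadjusted p below 0.05 in limma in the last.

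RNA processing held the largest share of rises among the 46 lists. Of 90 genes of RNA helicases and splicing factors, which unwind RNA and remove introns, 50 rose and 40 did not pass, and the median was 0.27. The share that rose was 55.6%, against 13.3% of all genes and 21.2% of the brightest. Among the 4812 brightest genes were 61.1% of this list. Both classes took part, with 18 of 33 helicases and 32 of 57 splicing factors. Srsf3, an SR protein that binds exons, read 8.73, 8.77 and 7.85 in the NT_p62KO mice and 9.55, 9.54 and 9.68 in the HD_p62KO mice (difference 1.14, SE 0.20, adjusted p = 0.00438). Here too NT_p62KO mouse 3 lay below the others of its group. Clk1, the kinase that phosphorylates SR proteins, rose by 0.69, Tra2a and Tra2b by 0.62 and 0.50, Sf3a1 of the U2 particle by 0.46 and Prpf3 of the tri-snRNP by 0.39. Among helicases Ddx10 rose by 0.60, Ddx46 by 0.47, Ddx20 by 0.41, Dhx36 by 0.36 and Ddx5 by 0.33. The neuronal splicing regulators Mbnl2 and Celf2, at -0.01 and -0.06, did not pass. Of the 90 genes 12, 19, 18 and 5 rose in the 4 checks.

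Polycomb complexes were looked at beside the genes they silence. Of 15 genes of the Polycomb complexes, which keep developmental genes shut, 8 rose, among them Jarid2 (0.58), Bmi1 (0.41), Cbx7 (0.39) and Ezh1 (0.27). Suz12 at 0.24 did not pass. Of 54 developmental factors that Polycomb silences in neurons 7 fell (beside 8.34% of all genes and 9.27% of the dimmest), the others did not pass, and 49 had a negative difference, with a median of -0.12. The falls included Gata3 (-0.56), Hoxb3 (-0.49) and Hoxc6 (-0.40), and Gata3 read 6.91, 6.55 and 7.04 and 6.23, 6.05 and 6.54, below the array medians of 7.71 to 7.73, with no detection calls used here. Without HD_p62KO mouse 2, HD_p62KO mouse 3 or NT_p62KO mouse 3, 2, 4 and 4 of the 69 genes rose and 1, 3 and 1 fell. With the array SD as a covariate limma called none of them (6 higher and 2 lower at an unadjusted p below 0.05). The median of the 69 genes was then -0.01, against -0.09 in the main fit. Of 17 histone genes 2 rose, H2bc8 (0.26) and Macroh2a1 (0.39).

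Proteins that bind huntingtin or that it sequesters include coactivators and repressors of transcription. Of 28 such genes 8 rose and 2 fell: Taf4b rose by 0.77, the acetyltransferase genes Ep300 and Crebbp by 0.61 and 0.42, the deacetylase genes Hdac2 and Hdac1 by 0.61 and 0.56, the repressor gene Rest by 0.53 and the huntingtin partner gene F8a by 0.43, while Rasd2 fell as given. Rest, which huntingtin keeps in the cytoplasm of neurons, read 6.57, 6.32 and 6.64 in the NT_p62KO mice and 6.87, 7.34 and 6.92 in the HD_p62KO mice (adjusted p = 0.0145), without overlap. In the 4 checks 5, 7, 7 and 2 of the 28 rose. Of 28 genes of DNA damage and p53, 9 rose and 1 fell. The p53 ligase gene Mdm2 rose by 0.67, Rrm2b by 0.52 and the damage kinase genes Atr and Atm by 0.51 and 0.40, and the death gene Bbc3 fell by 0.27. Of these genes 3, 4, 5 and 0 rose in the 4 checks (6 higher at an unadjusted p below 0.05 in limma in the last), and none fell (1 lower at an unadjusted p below 0.05 in limma in each).

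Protocadherins, adhesion proteins that give neurons an identity, rose in 15 of 33 genes (45.5%), the other 18 did not pass, and the median of 0.32 was the highest of all 46 lists. Of 21 clustered genes 10 rose, all of the β cluster: Pcdhb9 by 0.80, Pcdhb21 by 0.56, Pcdhb2 by 0.52 and Pcdhb10 by 0.50 among them. Pcdhb9 read 6.58, 6.53 and 5.99 in the NT_p62KO mice and 7.11, 7.13 and 7.28 in the HD_p62KO mice (SE 0.14, adjusted p = 0.00443). These genes are close copies of each other and their probes may share signal, so the 10 rises are not 10 independent measurements. Of 12 genes outside the cluster 5 rose, Pcdh20 by 0.98 and Pcdh19 by 0.57, and Pcdh9 at 0.08 did not pass. Rises among the 33 numbered 8, 11, 10 and 2 in the 4 checks.

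Glial and vascular markers held some changes, and several counts lay near the shares of all genes, 13.3% for rises and 8.34% for falls. Of 23 astrocyte markers 5 fell (3, 2, 2 and 2 in the 4 checks), Gli3 by 0.50, Ntsr2 by 0.37 and the glutamate transporter gene Slc1a2 by 0.27 among them, and Vim, an intermediate filament of reactive astrocytes, rose by 0.72 (SE 0.13). Gfap, the usual mark of astrocyte reaction, read 8.03, 8.15 and 8.23 in the NT_p62KO mice and 8.12, 8.06 and 7.93 in the HD_p62KO mice and did not pass (adjusted p = 0.468). Of 16 oligodendrocyte markers 6 fell (37.5%, against 8.34% of all genes), but 3, 1, 1 and 2 did in the 4 checks. They included the lipid hydroxylase gene Fa2h (-0.46), Car2 (-0.44) and Ugt8a (-0.37), while Mbp, myelin basic protein, was at -0.01 and did not pass. The tight junction gene Cldn5 and the receptor gene Kdr, at -0.39 and -0.29, were the 2 of 16 vascular markers that fell (12.5%, near the 8.34% of all genes). Of the 16, 1, 0, 0 and 0 passed in limma in the 4 checks, with 2 lower at an unadjusted p below 0.05 in each check that left none. Markers of tissue next to the striatum had 1 fall of 16 for cortex, Rspo1 (-0.40), or 6.25% beside 8.34% of all genes. The cortex median was -0.27, as large as those of neuronal lists above, and the part of cortex in their falls was not tested. Without HD_p62KO mouse 2 this median was -0.06, and without NT_p62KO mouse 3, 8 of the 16 were lower at an unadjusted p below 0.05 in limma. There was 1 fall of 14 (7.14%, beside 8.34% of all genes) for thalamus, septum and pallidum, Lhx6 (-0.28), which striatal interneurons also express. The 14 choroid and ependymal markers did not pass in limma in the main fit. None had an unadjusted p below 0.05 there, though Ttr differed by -0.99 (SE 0.90, adjusted p = 0.422). Without HD_p62KO mouse 2, 5 of the 14 were lower at an unadjusted p below 0.05 in limma. Their median was then -0.39, against -0.15 in the main fit. Leaving out the 3 arrays of small spread, 1 of the 14 rose and the median was 0.11.

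Among the genes given mouse by mouse above that passed, Sqstm1, Bcl11b, Gata3, Nfe2l2, Pcdhb9, Psmd1, Rest, Srsf3 and Tax1bp1 did not pass with the array SD as a covariate. Gata3, Rest and Tax1bp1 also lost their call without HD_p62KO mouse 2, Gata3 and Tax1bp1 without NT_p62KO mouse 3, and Tax1bp1 without HD_p62KO mouse 3. The other genes given mouse by mouse above, from Gpx6, Scn4b and Drd2 to Ifit3 and Irf9, kept their direction and call in all 4 checks. Kdr, given mouse by mouse at the end, lost its call without HD_p62KO mouse 3 and without NT_p62KO mouse 3. It also lost it with the array SD as a covariate. In some lists that mostly fell the few rises were lost. The 2 of Ras and Rap regulators and the 3 of calcium genes passed in limma in none of the 4 checks. The same held for the single rises of neuropeptides, postsynaptic scaffolds and release genes. In these lists 0 to 4 genes were higher at an unadjusted p below 0.05 in each check. Rises numbered 4, 3, 3 and 1 in dopamine and cyclic AMP signalling, and 1, 0, 1 and 0 in endocannabinoid genes.

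The HD effect in mice with p62 rests on 6 other arrays and gave 1366 calls (7.1% of genes), 742 higher (3.85%) and 624 lower (3.24%). Of these, 1107 were also called without p62, which is 81% of the calls with p62 and 26.5% of the calls without, and all 1107 had the same direction. Without HD_p62WT mouse 1 or 3, or without any 1 of the NT_p62WT mice, 145 to 433 genes were higher and 240 to 412 lower with p62, and without NT_p62KO mouse 3, which bears on the spread only, 1183 were higher. Of the 4172 genes called without p62, 97.6% had the same sign with p62, and this share was not counted over all genes. Gene by gene the values lay side by side: Gpx6 -2.07 without and -1.76 with p62, Scn4b -1.88 and -1.77, Cnr1 -1.28 and -1.18, Pde10a -0.94 and -0.76, Penk -0.64 and -0.56, Ifit3 1.24 and 0.75. By list, falls numbered 19 without and 16 with p62 in dopamine and cyclic AMP signalling, 25 and 22 in calcium handling and 13 and 10 in potassium channels. Rises numbered 23 and 18 in interferon genes, 50 and 13 in RNA processing, 16 and 2 in the proteasome and 20 and 4 in the lysosome. List medians without and with p62 were 0.24 and 0.19 for interferon genes and 0.21 and 0.13 for the proteasome. They were 0.27 and 0.15 for RNA processing and 0.21 and 0.14 for the lysosome. The gap in calls depended on the fit. With the array SD as a covariate, 1176 genes were called with p62 and 778 without. Leaving out the 3 arrays of small spread, 3320 were called with p62 and 3683 without.

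**Figure D5:**
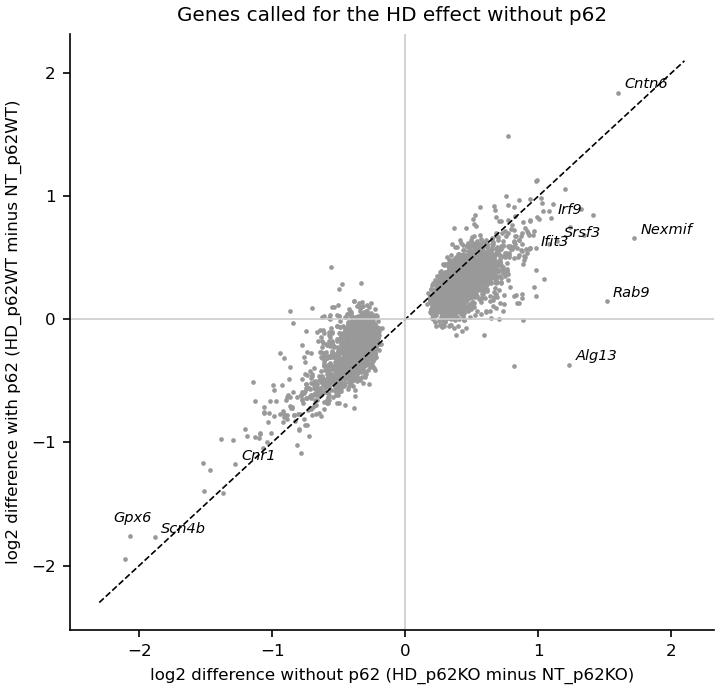
HD effect with p62 (vertical axis, log2) against the HD effect without p62 (horizontal axis, log2) for the 4172 genes called without p62, with the line of equal effects dashed. Most points follow the line, and the labelled Alg13 and Rab9 lie far from it, at 1.23 and 1.51 without and -0.37 and 0.15 with p62.

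The difference of the 2 HD effects was tested itself. No gene passed in limma (smallest adjusted p = 0.991), and 665 of 19248 had an unadjusted p below 0.05, so no gene above is shown to respond to HD in a way particular to mice without p62. Without NT_p62WT mouse 2 a single gene, Slf1, passed (difference of effects 1.501, adjusted p = 0.0354), named here after its value was seen. The groups themselves were not tested for it. A missed threshold does not show equal effects: the median SE of the HD effect was 0.095, and that of a difference is larger. The smallest unadjusted p were those of Glb1l3, a galactosidase-like gene (difference of effects -0.76, SE 0.14), Akna (-0.63, SE 0.13), the spliceosome gene Cwc27 (0.70, SE 0.16), Tulp2 (-0.76, SE 0.18) and the kinase gene Mok (0.55, SE 0.13). Cwc27 read 7.61, 7.66 and 7.28 in NT_p62KO and 8.28, 8.58 and 8.32 in HD_p62KO mice, and 7.93, 7.73 and 7.90 in NT_p62WT and 8.12, 8.03 and 7.92 in HD_p62WT mice. For Nexmif, Rab9 and Alg13 the differences of effects were 1.06 (SE 0.42), 1.36 (SE 0.63) and 1.60 (SE 0.44).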

How the data were processed

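Each array held a log2 value per probe set as deposited, which the authors computed with RMA according to the submitters' processing notes. The sources used here give no version or settings. RMA normalizes between arrays, so a shift of most genes would not be seen. The platform annotation gave 1 gene symbol to 19942 of 24055 probe sets, several to 1225, and did not list 2888. Of the 470 genes with several probe sets the brightest over 12 mice was used, which left 19248 genes. Of 117 such genes that passed, 86 passed with all probe sets and none in both directions.

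Group means were estimated over the 12 arrays together with limma 3.58.1 (R 4.3.3, lmFit and eBayes), which left 8 residual degrees of freedom. The Benjamini-Hochberg adjustment covered all genes, at a threshold of 0.05. The fit was tested on simulated data. The gene lists hold 46 groups and 1491 different measured genes. Comparison, lists and rules were chosen with earlier results of these data known. Named genes are Sqstm1, the 15 largest rises and falls without overlap, up to 8 members with the smallest p and the 2 brightest that did not pass per list role, a set of well-known genes, and the 5 smallest p of the difference of effects. Predicted genes were not named. Alternatives were a replicate block, normalization, brightness filters, variance models, array weights, array SD, probe set choice and leaving out mice.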

Additional observations from a re-analysis of the deposited data

Results flagged for a closer look

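In 3 of the genes named in the report, the HD_p62KO mice all lay on one side of the NT_p62KO mice while the HD_p62WT mice all lay on the other side of the NT_p62WT mice. Opposite directions of this kind can arise by chance among many genes, and in limma none of the 3 differences passed (adjusted p = 0.991 for each). Genes with this pattern were not counted over all 19248, so the 3 have no background beside them. Akna was also named above for its small p of the difference, a choice that favours this pattern.

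Akna, an AT-hook gene, read 7.50, 7.30 and 7.43 in the NT_p62KO and 7.05, 7.04 and 7.15 in the HD_p62KO mice, and 6.85, 6.85 and 6.65 in the NT_p62WT and 6.93, 7.07 and 7.23 in the HD_p62WT mice. The HD effect was -0.33 without and 0.30 with p62, a difference of -0.63 (SE 0.13, unadjusted p = 0.000362). Alg13 read 3.77, 5.36 and 4.94 in the NT_p62KO and 5.69, 5.92 and 6.16 in the HD_p62KO mice, and 5.93, 6.08 and 6.13 in the NT_p62WT and 5.30, 5.91 and 5.82 in the HD_p62WT mice. Its HD effects were 1.23 and -0.37, a difference of 1.60 (SE 0.44, unadjusted p = 0.00344). Kdr, the VEGF receptor gene of vessels, read 7.99, 8.00 and 8.13 in the NT_p62KO and 7.64, 7.92 and 7.71 in the HD_p62KO mice, and 7.63, 7.71 and 7.71 in the NT_p62WT and 7.73, 7.77 and 7.89 in the HD_p62WT mice. Its HD effects were -0.29 and 0.11, a difference of -0.40 (SE 0.12, unadjusted p = 0.00503).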

How the results depend on the processing

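Of 284 genes named above that passed, 127 passed with each array's SD as a covariate, 207 with only the 2 groups compared, 258 with a replicate block and 271 after a further quantile normalization. No named gene was called in the opposite direction under any alternative. For the HD effect without p62, the number of genes higher and lower was 1106 and 636 with only the 2 groups compared, and 267 and 511 with the array SD as a covariate. Array weights gave 2997 lower, and leaving out genes below the 50th percentile of brightness left 1014 lower. Higher calls were 56.3% of calls after quantile normalization and 71.0% above the 50th percentile, against 61.5% in the main fit. Leaving out a mouse gave 734 to 2947 genes higher and 539 to 2181 lower. For the HD effect with p62, the array SD as a covariate gave 475 higher, array weights 2750 higher and 1875 lower, and leaving out the 3 arrays of small spread, an alternative chosen after seeing the data, 1996 and 1324. Leaving out a mouse gave 145 to 1183 higher and 240 to 857 lower. The difference of HD effects had 0 to 1 calls in limma without a mouse. The replicate number as a block gave 1901 higher and 1153 lower without p62, and 350 and 359 with p62. The numbers do not pair the mice: deviations of same-numbered HD_p62KO and NT_p62KO mice correlated at -0.205, 0.206 and -0.181. The causes of these changes were not tested. With 3 arrays a group, the number of mice limits the precision, and no detection calls were used, so dim probe sets may measure background.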
